A study of Homo sapiens with 11 samples.

Results

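The interferon pathway was described in ARP1 myeloma cells through a list of 49 genes, of which 9 are regulators (receptors, kinases, STAT and IRF factors), 4 are nucleic acid sensors and 36 are interferon-induced effectors. The genes were taken by symbol from both deposited tables. The knockdown table lists 47 of the 49 among its 14458 genes and the overexpression table lists 34 among 11062, all of them also in the knockdown table. MX1 and IFI44L are in neither table.

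Type I interferons bind a receptor made of IFNAR1 and IFNAR2, whose attached kinases JAK1 and TYK2 phosphorylate STAT proteins. STAT2 then enters the nucleus with IRF9 and another STAT protein and binds the interferon-stimulated response element (ISRE) of induced genes. Their products sense viral nucleic acid, block virus entry and translation, and tag proteins with ISG15, and many of the same genes keep a low tonic level in cells that have met no virus.

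ARP1 is an established human multiple myeloma line labelled IgA kappa. RNA-seq libraries came from 4 groups of ARP1 cells: cells labelled shRNA against PHF19 (n = 3) with cells labelled scramble (n = 3), and cells given the PHF19 open reading frame on a PCDH lentiviral plasmid, called overexpression (n = 2), with cells given the empty PCDH vector (n = 3). PHF19 binds the Polycomb complex PRC2 as one of its accessory proteins, and the series title concerns its part in growth, drug resistance and EZH2 phosphorylation. Titles were used to group samples, since scramble and shRNA samples carry a genotype tag that names overexpression. Sorting is stated for overexpressing cells only. The labels state neither how the shRNA was delivered nor whether its libraries share a hairpin, and they do not say whether replicates were separate cultures, so p-values measure the spread between these libraries, which may be technical. In bulk RNA, fewer expressing cells and less RNA per cell cannot be told apart.

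Gene levels were taken from their values to be in FPKM-type units, per length and per depth, since no unit is named. Comparing levels between genes rests on this, and read depth is unknown. The listed values summed to 501348 to 524966 in shRNA, 470294 to 526068 in scramble, 498485 and 502349 in overexpression and 425155 to 426112 in empty vector libraries. PHF19 itself averaged 95.3 ± 17.5 in shRNA and 129 ± 20.3 in scramble libraries (SD, n = 3 each, limma adjusted p = 0.147, and 0.0445 when replicates were blocked by number), and without shRNA replicate 1 the log2 difference was -0.28, against -0.44 with it. It averaged 220 ± 9.63 in overexpression (n = 2) and 115 ± 4.12 in empty vector libraries (n = 3, adjusted p = 0.0438), a call lost under quantile normalisation (0.166) and most other alternatives tried. Of 13 plasma cell markers 12 are listed in each table, JCHAIN under that name or as IGJ, and in the knockdown table they summed to 1572 to 2021 in shRNA and 1989 to 2209 in scramble libraries. The listed T and NK cell markers there summed to at most 1.42 in shRNA and 1.96 in scramble libraries, and monocyte markers to 2.37 to 3.29 in shRNA and 4.64 to 5.97 in scramble libraries. Epithelial or kidney markers summed to 5.61 to 7.19 in shRNA and 9.82 to 14.6 in scramble libraries, and mature B cell markers to at most 2.81 in shRNA and 2.66 in scramble libraries. The plasma cell markers summed to 4390 and 11557 in overexpression libraries and to 2724 to 3567 in empty vector libraries. Of these sums IGJ alone gave 9837 and 2623 in overexpression replicates 1 and 2, and 1686, 1939 and 1700 in empty vector libraries. TNFRSF17 and MZB1 were listed at 0 in empty vector replicates 3 and 4, and FKBP11 in every library but empty vector replicate 3. Monocyte markers summed to 0.396 and 12.3 in overexpression libraries and to at most 0.0572 in empty vector libraries, the other lists of other cell types stayed under 7.38 in every library of that table, and the part of these levels in the results was not tested. One library of each table stood apart. On the first principal component of genes never listed at 0, shRNA replicate 1 lay at 34.6, against 8.72 and 10.7 for the other shRNA libraries and -21.4 to -15.0 for scramble libraries. Empty vector replicate 5 lay at 22.1, on the side of the overexpression libraries (12.8 and 13.8) and away from empty vector replicates 3 and 4 (-27.7 and -20.9). Beside a gene described, the value without that library is given where it moved a log2 difference over 0.1 in size by more than 1.5 times.

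Promoters of some of the genes described are printed here, and their part in the results was not tested. Each runs from 250 bases before to 50 bases after the gene's start in RefSeq's GRCh38.p14 annotation. It is read 5′ to 3′ on the gene's strand. Capitals mark the ISRE core (GAAA, any 2 bases, GAAA) on either strand, with overlapping matches merged. STAT2 is the one listed gene that passed the test without blocking replicates by number. DTX3L shares its upstream region with PARP9, BST2 and ISG15 are among the most abundant genes of the list, and IFIT1 is one of the least abundant.
STAT2 (chr12:56360058-56360357, minus strand): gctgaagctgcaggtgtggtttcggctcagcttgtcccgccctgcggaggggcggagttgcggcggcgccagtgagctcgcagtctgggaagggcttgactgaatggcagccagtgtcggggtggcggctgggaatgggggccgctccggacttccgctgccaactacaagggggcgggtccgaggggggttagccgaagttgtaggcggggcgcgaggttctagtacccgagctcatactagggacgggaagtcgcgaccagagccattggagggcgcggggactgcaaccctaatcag
DTX3L (chr3:122564088-122564387, plus strand): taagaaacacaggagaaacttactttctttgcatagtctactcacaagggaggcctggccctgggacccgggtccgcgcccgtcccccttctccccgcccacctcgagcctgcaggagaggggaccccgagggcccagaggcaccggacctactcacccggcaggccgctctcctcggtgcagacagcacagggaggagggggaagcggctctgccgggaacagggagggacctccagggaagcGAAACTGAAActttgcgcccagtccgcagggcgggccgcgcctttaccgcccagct
BST2 (chr19:17405581-17405880, minus strand): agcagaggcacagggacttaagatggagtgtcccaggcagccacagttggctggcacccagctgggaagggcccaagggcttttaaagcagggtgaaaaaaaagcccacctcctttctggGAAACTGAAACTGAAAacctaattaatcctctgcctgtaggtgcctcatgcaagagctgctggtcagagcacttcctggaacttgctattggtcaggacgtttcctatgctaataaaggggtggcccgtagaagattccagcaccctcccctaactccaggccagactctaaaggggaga
ISG15 (chr1:1013247-1013546, plus strand): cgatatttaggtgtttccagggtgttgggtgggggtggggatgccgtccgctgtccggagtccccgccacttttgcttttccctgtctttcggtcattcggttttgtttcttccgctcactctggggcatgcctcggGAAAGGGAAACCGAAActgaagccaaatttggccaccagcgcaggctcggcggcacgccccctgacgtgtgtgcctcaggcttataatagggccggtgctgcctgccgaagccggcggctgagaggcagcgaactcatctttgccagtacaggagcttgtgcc
IFIT1 (chr10:89392373-89392672, plus strand): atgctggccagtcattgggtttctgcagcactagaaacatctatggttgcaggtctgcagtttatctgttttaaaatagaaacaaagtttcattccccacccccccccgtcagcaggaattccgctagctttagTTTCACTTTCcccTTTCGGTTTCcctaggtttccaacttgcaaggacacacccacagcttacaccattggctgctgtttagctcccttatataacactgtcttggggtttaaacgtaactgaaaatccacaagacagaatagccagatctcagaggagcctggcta

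RefSeq promoter entries were found for 39 of the 49 genes, 38 by symbol and DDX58 through its current symbol RIGI. An ISRE core lay in the window of 21 of these 39 genes, against 4.38% of all 27305 genes of the table. The match was found for 20 of 30 effectors, 1 of 3 sensors (IFIH1) and 0 of 6 regulators. The STAT dimer site core (TTC, any 3 bases, GAA), which reads the same on both strands, lay in 10 of the 39, among them the regulators IRF1 and IRF9, against 9.38% of all genes. In the printed STAT2 window neither set of letters occurs, which says only that these letters are not in this window. The single ISRE core of the DTX3L window, at chr3:122564332-122564341, is the same stretch of DNA as the one in a PARP9 window on the opposite strand, since the 2 windows overlap by 137 bases. BST2 and IFIT1 carry 2 cores each, and their levels stood near the top and the bottom of the list.

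The baseline levels spanned a wide range. BST2, the tethering protein that holds budding virus at the cell surface, was the most abundant gene of the list in both tables. It had 282, 268 and 272 in shRNA replicates 1 to 3, against 238, 299 and 230 in scramble replicates 1 to 3, and the groups overlapped (log2 fold change 0.11, SE 0.14, adjusted p = 0.665). BST2 had 232 and 254 in overexpression replicates 1 and 2 and 211, 187 and 298 in empty vector replicates 3 to 5, again with overlap (0.09, SE 0.23, adjusted p = 0.911). ADAR, which edits adenosine to inosine in double-stranded RNA and so keeps the cell's own RNA from its sensors, came next. Its values were 81.3, 81.5 and 92.8 in shRNA libraries and 84.6, 73.5 and 93.4 in scramble libraries (0.03, SE 0.13, adjusted p = 0.920). The overexpression libraries had 105 and 101 for ADAR and the empty vector libraries 100.2, 99.1 and 81.2 (0.14, SE 0.14, adjusted p = 0.722, and 0.046 without empty vector replicate 5), so these groups did not overlap but differed by less than the test could call.

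ISG15, the ubiquitin-like modifier, came after ADAR in the knockdown table. It stood at 67.3, 43.3 and 44.9 in shRNA libraries and at 46.2, 58.9 and 39.3 in scramble libraries (0.10, SE 0.20, adjusted p = 0.801), and without shRNA replicate 1, its highest library, the difference was -0.10. In the overexpression table ISG15 had 38.4 and 37.0 in overexpression and 37.0, 32.5 and 34.6 in empty vector libraries (0.12, SE 0.11, adjusted p = 0.712). At the other end were genes that a strong interferon response is known to induce. Of the 47 genes listed in the knockdown table, 14 did not reach a value of 1 in 3 libraries and were not tested: DDX58, DHX58, HERC6, USP18, OASL, IFIT1, IFIT2, IFIT5, IFITM2, IFITM3, MX2, IFI27, IFI44 and XAF1. Their values lay between 0 and 1.50 in all 6 libraries, and 5 of them were listed at 0 in at least 1 library. IFIT1, which binds foreign capped RNA, had 0.11, 0.04 and 0 in shRNA libraries and 0.02, 0.04 and 0.11 in scramble libraries. USP18, which removes ISG15 from proteins and shuts off the receptor, had 0, 0.05 and 0.05 in shRNA and 0.15, 0.15 and 0 in scramble libraries. The IFITM genes share sequence closely, so the contrast between IFITM1 (41.5 ± 12.5 in scramble libraries) and IFITM2 and IFITM3, which stayed below 1 there, is uncertain where reads could be assigned to either.

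**Figure D1:**
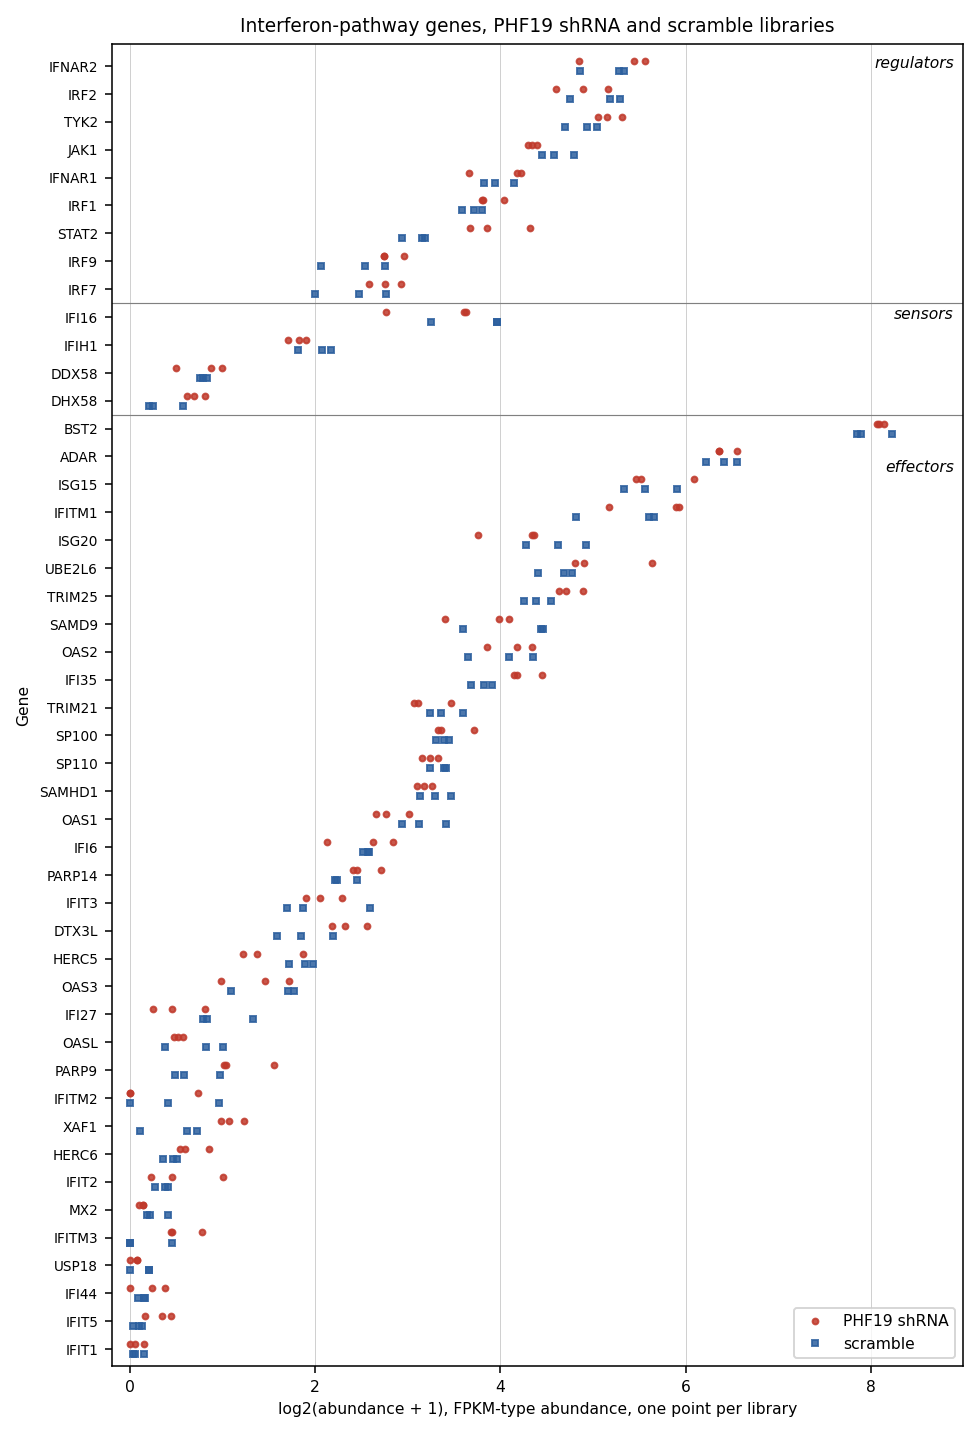
Level of each of the 47 genes listed in the knockdown table, as log2(abundance + 1) on the horizontal axis, with 1 point per library (red circles, PHF19 shRNA; blue squares, scramble) and genes grouped by role and ordered by scramble mean. BST2 and ADAR stand at the high end, the IFIT1 and USP18 points stay near 0, and the STAT2 groups are separate.

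The knockdown comparison asked how the pathway differs when PHF19 is targeted. In the main fit, without a replicate block, STAT2 was the only gene of the list that passed, and it was higher in shRNA libraries. With replicates blocked by number, UBE2L6, IFI35 and ISG20 passed as well. STAT2 had 19.0, 11.7 and 13.4 in shRNA replicates 1 to 3, against 6.68, 8.12 and 7.92 in scramble replicates 1 to 3. Every shRNA library lay above every scramble library, with means of 14.7 ± 3.79 and 7.57 ± 0.780 (SD, n = 3 each). The log2 fold change was 0.85 (SE 0.18, limma adjusted p = 0.0292), on the log2(abundance + 1) scale. In the main fit 1 of 33 genes tested passed, higher, and 0 were lower, against 5.51% of all 10900 genes tested (4.24% higher and 1.28% lower). This share of 3.03% rests on 1 gene. With the replicate block the list had 3 higher and 1 lower of 33, against 11.9% of all genes either way. At an unadjusted p under 0.05 in the main fit there were 6 higher and 1 lower, against 24.1% of all genes. Fold changes were above 0 for 20 of 33, against 54.4% of all genes, with a median log2 fold change of 0.08 over the list and 0.03 over all genes. The calls over all genes were 462 higher and 139 lower, and 377 and 206 under quantile normalisation.

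The STAT2 difference held without shRNA replicate 1, the highest library (0.66, SE 0.15, adjusted p = 0.0327), and when replicates were blocked by number (adjusted p = 0.0210). It no longer passed without scramble replicate 1, 2 or 3 (adjusted p = 0.113, 0.104 and 0.0774) or without shRNA replicate 3 (0.0616), nor under quantile normalisation (0.0503) or with no filter on low values (0.0601). The log2 fold changes with 1 library left out were 0.66 to 0.99.

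The partners of STAT2 moved less. IRF9, its DNA-binding partner, had 5.70, 5.69 and 6.78 in shRNA libraries and 3.17, 4.82 and 5.74 in scramble libraries, with overlap between the groups (0.36, SE 0.19, adjusted p = 0.275). IRF7, which drives interferon genes, had 5.75, 4.96 and 6.58 in shRNA and 2.98, 5.78 and 4.54 in scramble libraries (0.34, SE 0.21, adjusted p = 0.338). IRF1, an activator induced by interferon, had 12.9, 15.4 and 13.1 in shRNA and 11.0, 12.1 and 12.9 in scramble libraries (0.18, SE 0.14, adjusted p = 0.441). IRF2, which competes with IRF1 for its sites, had 23.3, 34.7 and 28.7 in shRNA and 25.9, 38.1 and 35.5 in scramble libraries (-0.19, SE 0.18, adjusted p = 0.554, and -0.051 without shRNA replicate 1). For both IRF1 and IRF2 the groups overlapped.

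Of the receptor and its kinases none passed. TYK2 had 32.2, 34.5 and 38.9 in shRNA libraries and 25.0, 29.7 and 32.1 in scramble libraries, with no overlap (0.28, SE 0.13, adjusted p = 0.241). JAK1 lay the other way, also with no overlap, at 20.0, 19.3 and 18.7 in shRNA and 20.8, 22.8 and 26.8 in scramble libraries (-0.26, SE 0.13, adjusted p = 0.249). The kinases thus stood on opposite sides of 0, and neither difference passed. IFNAR1 had 11.6, 17.7 and 17.1 in shRNA and 13.2, 14.4 and 16.7 in scramble libraries (0.05, SE 0.17, adjusted p = 0.883). IFNAR2 had 27.8, 46.2 and 42.6 in shRNA and 28.0, 37.7 and 39.4 in scramble libraries (0.13, SE 0.20, adjusted p = 0.735, and 0.35 without shRNA replicate 1), and both receptor chains overlapped between groups.

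Both sensors that could be tested lay lower in shRNA libraries without passing. IFI16, a DNA-binding sensor of the PYHIN family, had 5.80, 11.2 and 11.4 in shRNA and 8.51, 14.6 and 14.6 in scramble libraries (-0.39, SE 0.27, adjusted p = 0.408), and without shRNA replicate 1 the difference was -0.11 (adjusted p = 0.821). IFIH1 encodes MDA5, which binds long double-stranded RNA, and had 2.26, 2.73 and 2.55 in shRNA and 2.51, 3.21 and 3.50 in scramble libraries (-0.21, SE 0.16, adjusted p = 0.461). The other RNA sensors stayed under 1: DDX58, which encodes RIG-I, had 0.99, 0.41 and 0.83 in shRNA and 0.78, 0.69 and 0.73 in scramble libraries. DHX58, which encodes the related LGP2, had 0.75, 0.53 and 0.61 in shRNA and 0.15, 0.48 and 0.19 in scramble libraries, and it was too low to be tested.

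Among 22 effectors tested 0 passed in limma, while 5 had an unadjusted p under 0.05 as higher and 1 as lower, against 15.3% and 8.74% of all genes. PARP9 passed the filter on low values through 1 group alone. Without such genes the counts were 4 and 1 of 21, against 15% and 8.66%. With the replicate number as a block, 2 effectors rose and 1 fell, so that with STAT2 the list had 3 higher and 1 lower of 33, against 8.2% and 3.68% of all genes (11.9% either way). UBE2L6, the conjugating enzyme for ISG15, had 48.8, 28.9 and 27.0 in shRNA and 26.4, 24.7 and 20.1 in scramble libraries (0.50, SE 0.21, adjusted p = 0.184, and 0.0470 with the block). Its groups did not overlap, but most of the difference came with shRNA replicate 1, without which it was 0.23 (adjusted p = 0.348). IFI35, an interferon-induced leucine zipper protein, had 20.9, 16.8 and 17.2 in shRNA and 13.2, 14.0 and 11.9 in scramble libraries, with no overlap (0.46, SE 0.14, adjusted p = 0.0835, and 0.0429 with the block). ISG20, an exonuclease that degrades RNA, was the member that fell with the block, at 12.5, 19.5 and 19.2 in shRNA and 18.5, 29.4 and 23.7 in scramble libraries (-0.46, SE 0.21, adjusted p = 0.203, and 0.0338 with the block). Its groups overlapped, each shRNA library lay below the scramble library of the same number, and without shRNA replicate 1 the difference was -0.26 (adjusted p = 0.402).

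PARP9 and DTX3L, whose proteins form one ADP-ribosylating ubiquitin ligase, both lay higher in shRNA libraries without passing. PARP9 had 1.94, 1.02 and 1.05 in shRNA and 0.50, 0.40 and 0.96 in scramble libraries (0.52, SE 0.21, adjusted p = 0.159, and 0.34 without shRNA replicate 1). It passed the filter on low values through its shRNA libraries alone, so its groups had to differ. DTX3L had 4.89, 3.98 and 3.52 in shRNA and 2.01, 2.60 and 3.57 in scramble libraries (0.47, SE 0.19, adjusted p = 0.164), with overlap. The windows upstream of the 2 genes are the ones that share an ISRE core.

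Of all 33 genes tested, 6 lay wholly above scramble (TYK2, STAT2, UBE2L6, TRIM25, PARP9 and IFI35) and 1 wholly below (JAK1), against 18.9% and 13% of all genes. PARP9 had to be separate, having passed the filter through shRNA libraries alone. Without such genes the counts were 5 and 1 of 32, against 18.5% and 12.9% of all genes, and at an unadjusted p under 0.05 they were 5 higher and 1 lower, against 15% and 8.66%. TRIM25, the ubiquitin ligase that helps to activate RIG-I, had 25.2, 23.8 and 28.8 in shRNA and 19.9, 18.2 and 22.4 in scramble libraries (0.35, SE 0.13, adjusted p = 0.142). The other effectors tested lay between -0.37 for HERC5, the ligase that attaches ISG15, and 0.31 for IFITM1, which blocks virus entry, and none passed. Without shRNA replicate 1 these were -0.24 for HERC5 and 0.55 for IFITM1. Of the OAS enzymes, which make the oligoadenylates that activate RNase L, OAS1 stood at -0.34 and OAS2 at 0.10, and both overlapped between the groups. By the authors' deposited table, whose test is not named, p-values were under 0.05 for 32 of the 47 listed genes, against 61.2% of all its genes.

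**Figure D2:**
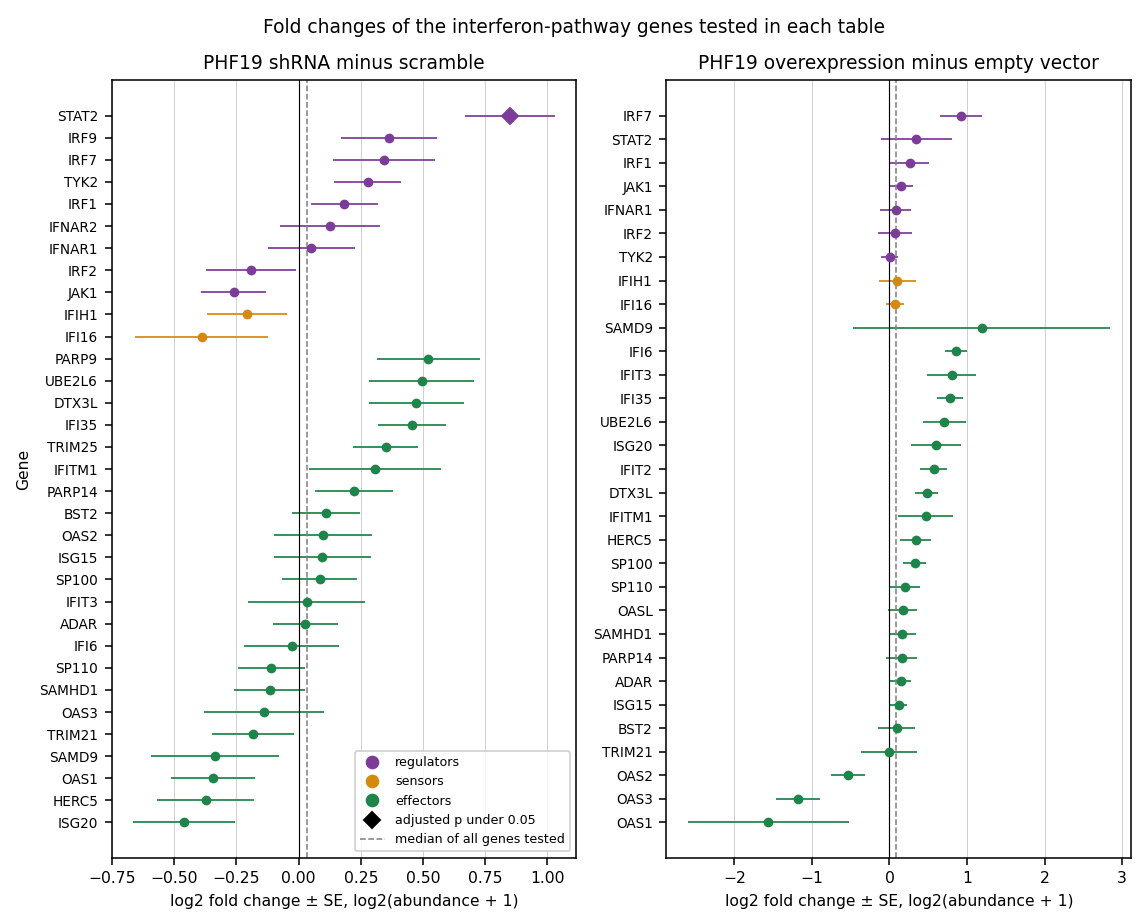
Log2 fold change with its SE (bars) for the genes tested, shRNA minus scramble on the left (33 genes) and overexpression minus empty vector on the right (31 genes), coloured by role, with a diamond where the adjusted p was under 0.05 and a dashed line at the median of all genes tested (0.03 and 0.09). STAT2 on the left is the only diamond, and OAS1, OAS3 and SAMD9 on the right include libraries listed at 0.

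The overexpression comparison asked how the same genes differ between PHF19-overexpressing and empty vector cells. None of the list passed in limma: 0 of 31 genes tested, against 0.914% of all 10279 genes (0.613% higher and 0.302% lower). At an unadjusted p under 0.05 there were 5 higher and 1 lower, against 7.88% and 3.65% of all genes (11.5% either way). Fold changes leaned upward, with 27 of 31 above 0 and a median of 0.17, against 59.9% of all genes above 0 and a median of 0.09. Quantile normalisation moved the median of all genes by -0.13 and put the list at 0.06. It also put ADAR, BST2, IFI16, IFIH1, IFNAR1, IRF2, ISG15, JAK1, OASL and TYK2 below 0, so the count above 0 depends on the scaling. SAMD9 lay above 0 with empty vector replicate 4, where it is listed at 0, and at -0.31 without that library. The median of the list less that of all genes was 0.083 as fitted and 0.11 under quantile normalisation. Overexpression libraries lay wholly above empty vector libraries for 11 of 31 and wholly below for 2 (OAS2 and OAS3), against 23.1% and 11.1% of all genes. OAS3 passed the filter through empty vector libraries alone and IFIT2 through overexpression libraries alone, so both had to be separate. Without such genes the counts were 10 and 1 of 29, against 22.9% and 10% of all genes, and at an unadjusted p under 0.05 they were 4 higher and 0 lower, against 7.37% and 2.89%.

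**Figure D3:**
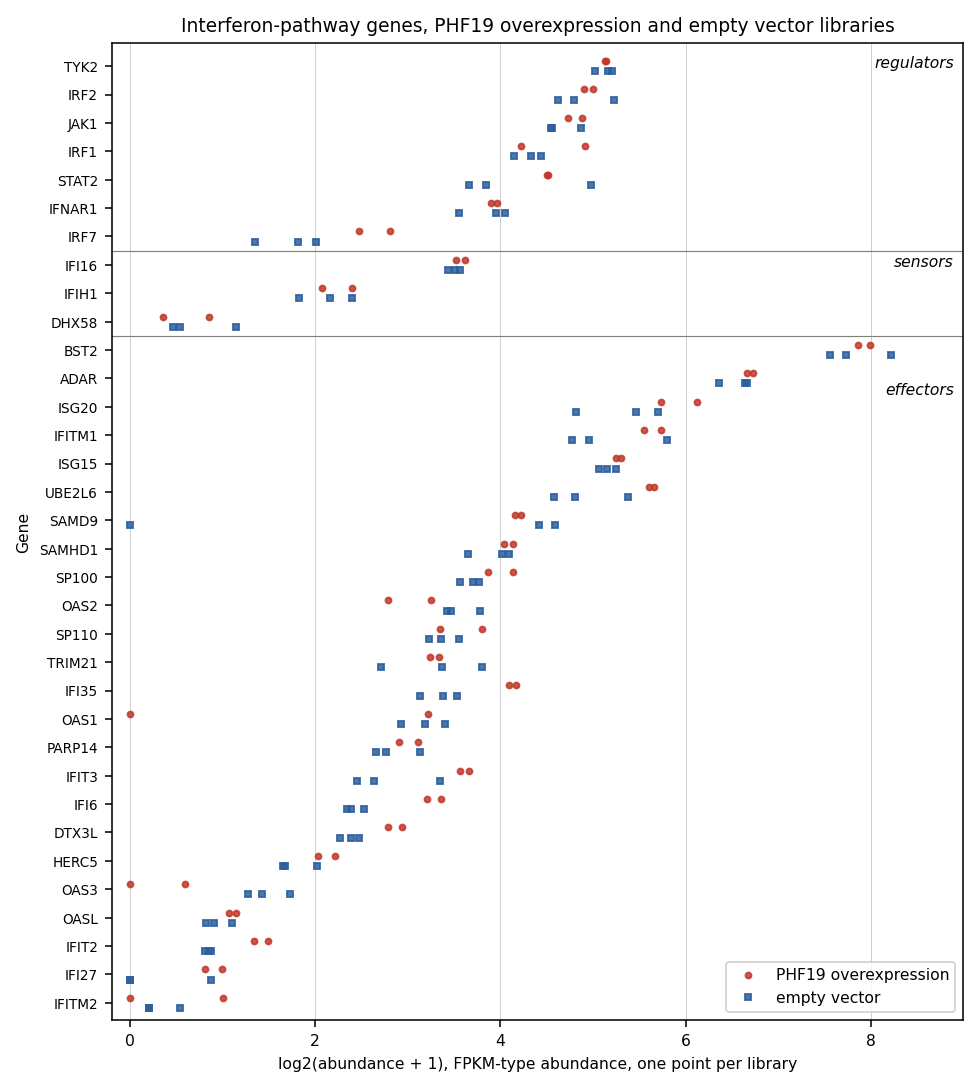
Level of each of the 34 genes listed in the overexpression table, as log2(abundance + 1) on the horizontal axis, with 1 point per library (red circles, PHF19 overexpression, 2 libraries; blue squares, empty vector, 3 libraries) and genes grouped by role. IFI6, IFI35 and IRF7 are separate between the groups, while OAS1, OAS3, SAMD9, IFI27 and IFITM2 each have a library listed at 0.

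IFI6, an interferon-induced membrane protein with antiviral and survival roles, had the smallest p of the list. It had 9.25 and 8.21 in overexpression replicates 1 and 2, against 4.24, 4.07 and 4.76 in empty vector replicates 3 to 5. The groups were clearly separate, yet the difference did not pass over all genes (0.86, SE 0.14, adjusted p = 0.183, and 0.0556 without empty vector replicate 5). In the knockdown table IFI6 had 3.37, 5.17 and 6.17 in shRNA and 5.00, 4.95 and 4.73 in scramble libraries (-0.03, SE 0.19, adjusted p = 0.945). IFI35 had 16.0 and 17.0 in overexpression and 10.6, 7.75 and 9.41 in empty vector libraries (0.78, SE 0.17, adjusted p = 0.288), also with no overlap.

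IRF7 had 4.54 and 6.0 in overexpression libraries, against 1.54, 3.02 and 2.51 in empty vector libraries, and the groups did not overlap (0.92, SE 0.27, adjusted p = 0.375). STAT2 had 21.7 and 21.8 in overexpression libraries and 11.6, 13.3 and 30.5 in empty vector libraries (0.35, SE 0.45, adjusted p = 0.800). Its spread came from empty vector replicate 5, the library that stood with the overexpression libraries over all genes, and without it the difference was 0.76 (SE 0.098, adjusted p = 0.0597). UBE2L6 had 47.7 and 49.4 in overexpression and 26.9, 22.9 and 40.7 in empty vector libraries (0.71, SE 0.27, adjusted p = 0.444), with 0.94 (adjusted p = 0.0556) when replicate 5 was left out. Unlike those of STAT2, its groups did not overlap. IFITM1 had 52.2 and 45.8 in overexpression and 26.4, 30.0 and 54.6 in empty vector libraries, with overlap (0.47, SE 0.35, adjusted p = 0.649, and 0.78 with adjusted p = 0.0697 without replicate 5). For STAT2, UBE2L6 and IFITM1 alike, empty vector replicate 5 lay above both other empty vector libraries. That held for 14 of 31 listed genes tested (45.2%), near the 42.7% of all genes.

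None of the other regulators passed. TYK2 had 34.0 and 34.4 in overexpression and 31.6, 36.0 and 34.9 in empty vector libraries (0.003, SE 0.11, adjusted p = 0.995). JAK1 had 28.5 and 25.5 in overexpression and 22.5, 22.3 and 28.3 in empty vector libraries (0.15, SE 0.16, adjusted p = 0.746, and 0.26 without empty vector replicate 5). IFNAR1 had 13.9 and 14.6 in overexpression and 15.6, 14.4 and 10.7 in empty vector libraries (0.08, SE 0.19, adjusted p = 0.909). All 3 overlapped between the groups. IRF1 had 17.6 and 29.2 in overexpression and 19.2, 20.6 and 16.7 in empty vector libraries (0.26, SE 0.25, adjusted p = 0.724), and IRF2 had 31.0 and 28.9 in overexpression and 23.6, 26.7 and 36.5 in empty vector libraries (0.07, SE 0.22, adjusted p = 0.924). IFNAR2 and IRF9 are not listed in this table.

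The sensors showed no called difference either. IFI16 had 10.5 and 11.3 in overexpression and 10.8, 10.4 and 9.82 in empty vector libraries (0.07, SE 0.12, adjusted p = 0.851), and IFIH1 had 4.25 and 3.20 in overexpression and 3.47, 2.55 and 4.27 in empty vector libraries (0.10, SE 0.24, adjusted p = 0.905, and 0.24 without empty vector replicate 5). DHX58 had 0.283 and 0.798 in overexpression and 0.456, 0.373 and 1.21 in empty vector libraries and was too low to be tested.

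Of the 4 effectors below 0, 3 were OAS1, OAS2 and OAS3, while OASL lay at 0.17. OAS1 and OAS3 are each listed at 0 in overexpression replicate 1, and without that library OAS1 lay at 0.049. OAS2 and OAS3 stayed below 0 without it, at -0.77 and -0.88, and OASL stayed above 0, at 0.21. The signs within the OAS family were thus mixed, and none of these genes passed. OAS2 had 8.53 and 5.91 in overexpression and 12.8, 9.75 and 10.1 in empty vector libraries (-0.54, SE 0.22, adjusted p = 0.461). OAS3 was listed at 0 and 0.510 in overexpression and at 1.68, 1.42 and 2.32 in empty vector libraries, and OAS1 at 0 and 8.32 in overexpression and at 6.59, 8.11 and 9.57 in empty vector libraries. Since many genes of this table are listed at exactly 0 in single libraries, no fold over all libraries is given for OAS1 and OAS3. SAMD9, which restricts poxviruses, was likewise listed at 17.6 and 16.8 in overexpression and at 23.0, 0 and 20.3 in empty vector libraries. IFIT3 had 10.8 and 11.6 in overexpression and 9.15, 4.45 and 5.19 in empty vector libraries (0.80, SE 0.32, adjusted p = 0.456), and IFIT2, its binding partner, had 1.52 and 1.81 in overexpression and 0.799, 0.749 and 0.830 in empty vector libraries (0.57, SE 0.17, adjusted p = 0.381). ISG20 had 52.1 and 68.5 in overexpression and 27.2, 50.9 and 43.3 in empty vector libraries (0.60, SE 0.32, adjusted p = 0.549), and DTX3L had 6.63 and 5.87 in overexpression and 4.54, 4.24 and 3.83 in empty vector libraries (0.48, SE 0.15, adjusted p = 0.381). By the authors' deposited table, p-values were under 0.05 for 9 of the 34 listed genes, against 12.9% of all its genes.

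**Figure D4:**
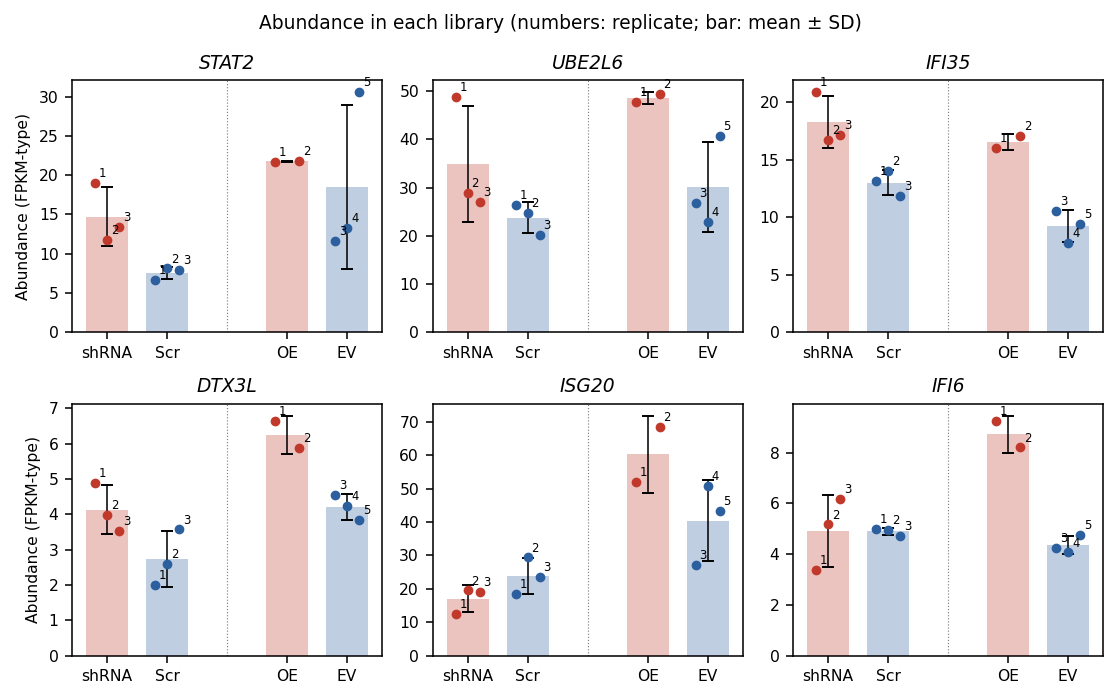
Abundance of 6 genes in each library (points, labelled by replicate number) with the group mean and SD (bars and whiskers), shRNA and scramble left of the dotted line and overexpression and empty vector right of it. The STAT2 point of empty vector replicate 5 (30.5) lies above both overexpression points, and shRNA replicate 1 is the highest library for STAT2, UBE2L6, IFI35 and DTX3L in its group.

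The tables have no library in common, so the 29 genes tested in both can be set side by side. Of these, 15 lay above 0 in both comparisons and 3 below 0 in both, 10 were lower in shRNA and higher in overexpression libraries, and 1 was the reverse. Over all 9307 genes tested in both tables, 35.2% lay above 0 in both, 20.6% below 0 in both, 25.4% lower in shRNA and higher in overexpression libraries, and 18.8% the reverse. STAT2, UBE2L6, IFI35, DTX3L and IRF7 were thus higher than the controls on average whether PHF19 was targeted or overexpressed. Among these only STAT2 in the knockdown comparison passed in the main fit, and UBE2L6 and IFI35 there passed with the replicate block alone.

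Of 101 further genes of the interferon pathway, 69 were tested in the knockdown table, where 3 rose and 1 fell (6 and 1 with the replicate block). These shares, 5.8% and 10.1% with the block, lay near the 5.51% and 11.9% of all genes. APOL6, an interferon-induced apolipoprotein L, had 7.97, 10.0 and 9.83 in shRNA and 2.58, 4.08 and 4.94 in scramble libraries (1.10, SE 0.20, adjusted p = 0.0179). RBCK1, which encodes HOIL-1 of the linear ubiquitin ligase, had 32.3, 34.7 and 39.9 in shRNA and 19.2, 22.0 and 20.7 in scramble libraries (0.76, SE 0.13, adjusted p = 0.0153). PARP10, a mono-ADP-ribosyltransferase, had 14.9, 10.7 and 10.9 in shRNA and 5.79, 6.42 and 7.49 in scramble libraries (0.79, SE 0.17, adjusted p = 0.0283). IRF8, a lineage factor of B cells and myeloid cells, fell, at 1.18, 2.71 and 2.56 in shRNA and 6.06, 4.63 and 4.44 in scramble libraries (-0.97, SE 0.22, adjusted p = 0.0356). None of these 4 passed without scramble replicate 2, with adjusted p-values of 0.0750 for APOL6, 0.0608 for RBCK1, 0.114 for PARP10 and 0.117 for IRF8. With overexpression 0 of 69 such genes passed in limma, against 0.914% of all genes. At an unadjusted p under 0.05 there were 9 higher and 5 lower (13% and 7.25%), against 7.88% and 3.65% of all genes. Of 10 interferon genes sought, IFNL1 alone is listed, in the knockdown table, at 0 in all shRNA libraries and at 0.51, 0 and 0.41 in scramble libraries.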

How the data were processed

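The authors' abundances were recorded as FPKM from their values, and normalisation for length and depth was assumed. Their headers name no unit, so FPKM, RPKM and TPM cannot be told apart. TopHat and hg19 are named, per the submitters' processing notes, with no quantifier. The tables further hold the authors' own p-value per gene, per the file headers. Values were taken as log2(value + 1). Genes reaching 1 in at least 3 (knockdown) or 2 (overexpression) libraries were fitted per table with limma-trend and robust variances (limma 3.58.1, R 4.3.3), with 2-sided p-values adjusted by Benjamini-Hochberg over each whole table, at a threshold of 0.05. The fit was also run on simulated data in which the spread of each gene was capped. That run does not cover the most variable genes. Python 3.11.15, pandas 2.3.3, numpy 2.4.6 and matplotlib 3.10.9 made tables and plots.

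Genes and lists were chosen with earlier results of these data known. Library values are given for PHF19, genes past the threshold, tested regulators and sensors, genes whose knockdown groups did not overlap with a log2 fold change of at least 0.5 either way, and the 3 highest control levels per table. Other genes given library values (USP18, IFIT1, DDX58, DHX58, UBE2L6, IFI35, IFI6, ISG20, TRIM25, DTX3L, the overexpression effectors, IFNL1) were picked after their values were seen, as were the counts without genes that passed the filter through 1 group alone. Knockdown and scramble libraries of equal number deviated together from their group means, with correlations of 0.341, 0.270 and 0.273, against at most 0.0936 for others. The number was used as a block in an alternative fit only, and the main fit ignored this pairing. Alternatives were another variance model, 2 normalisations, other filters and pseudocounts, genes listed at 0 left out, the block, and each library left out. Promoters are RefSeq's (GRCh38.p14). The tables carry no counts, so no interval or detection limit was computed.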

Additional observations from a re-analysis of the deposited data

How the results depend on the processing

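Read depth is unknown, so counting error could not be set beside low values. In the knockdown comparison 1 listed gene passed, and 0 passed under quantile normalisation and without a filter, 4 with the replicate block, and 0 to 1 with a library left out. Over all genes 601 passed, against 269 without a filter, 1295 with the replicate block and 54 to 629 with a library left out. PHF19 passed there with the block (-0.44, adjusted p = 0.0445). In the overexpression comparison 0 listed genes passed under any of the 13 alternatives. Their median of 0.17 was 0.062 under quantile normalisation and 0.13 to 0.25 with a library left out. Over all genes 94 passed, against 36 with a filter at 5, 0 with genes listed at 0 left out, 61 with a pseudocount of 0.1 and 107 to 350 with a library left out. PHF19 no longer passed there under the alternatives that follow, each with its log2 difference in brackets. These were the fit without trend and robust variances, a filter at 5 and genes listed at 0 left out (0.93 each). Others were quantile normalisation (0.75), median-of-ratios scaling (0.85) and a pseudocount of 0.1 (0.93). With a library other than empty vector replicate 5 left out, PHF19 did not pass either (log2 differences 0.88 to 0.97).

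A log2 difference changed sign under at least 1 alternative for 9 of 33 listed genes in the knockdown comparison and 15 of 31 in the overexpression comparison, none of which passed under any alternative. In the knockdown comparison these were ADAR (-0.014 under median-of-ratios scaling, -0.063 to 0.11 with a library left out), IFNAR1 (-0.029 under quantile normalisation, -0.051 to 0.23), IFNAR2 (-0.023 to 0.35), ISG15 (-0.10 to 0.25), IFIT3 (-0.092 under quantile normalisation, -0.0015 under median-of-ratios scaling, -0.15 to 0.30), IFI6 (-0.18 to 0.17), OAS2 (-0.093 to 0.26), OAS3 (-0.36 to 0.061) and SP100 (-0.040 to 0.16). In the overexpression comparison quantile normalisation gave -0.015 for ADAR, -0.028 for BST2, -0.033 for IFI16, -0.020 for IFIH1, -0.034 for IFNAR1, -0.082 for IRF2, -0.023 for ISG15, -0.0082 for JAK1, -0.0062 for OASL and -0.14 for TYK2, and median-of-ratios scaling gave -0.0039 for IRF2 and -0.071 for TYK2. With a library left out the ranges were -0.049 to 0.29 for BST2, -0.058 to 0.26 for IFIH1, -0.072 to 0.18 for IFNAR1, -0.086 to 0.61 for IRF1, -0.060 to 0.24 for IRF2, -0.051 to 0.040 for TYK2, -3.17 to 0.049 for OAS1, -0.31 to 1.98 for SAMD9, -0.027 to 0.42 for SP110 and -0.30 to 0.24 for TRIM21. OAS1 and SAMD9 include a library listed at 0.

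With an overexpression library left out, the lone one is assumed to vary like the empty vector libraries. The cause of these changes was not tested.

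No paired analysis was possible for the overexpression comparison because its groups share no replicate number. The replicate block changed no other call among the listed genes than those of UBE2L6, IFI35 and ISG20.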
